A study of Danio rerio with 8 samples.

Results

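The long arm of zebrafish chromosome 4 was taken as every peak of open chromatin on chromosome 4 that started at or beyond 30 Mb (GRCz10 assembly). The 4 peak lists of the study held 2398 such peaks among 337777 listed peaks, and another 7333 peaks started before 30 Mb on the same chromosome. The arm is known to be largely heterochromatic and late replicating, with dense repeats, small RNA genes and large tandem families of NOD-like receptor (NLR) and zinc finger genes, and in strains close to the wild it carries the sex-determining region. Open chromatin was mapped by ATAC-seq, in which the Tn5 transposase cuts and tags DNA that nucleosomes leave exposed, so that a peak marks a stretch with many cuts, often a promoter or an enhancer.

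The study compared wild type (WT) zebrafish embryos with embryos homozygous for a frameshifting deletion in tp63, the gene of p63, a transcription factor of the p53 family needed for epidermis. Both genotypes were assayed during early somitogenesis, at 8 somites, and on the second day of development, at 36 hours post fertilization (hpf). Each of the 4 groups had 2 replicates, which the authors combined into 1 list of reproducible peaks. The lists used here hold no value per replicate, so that no difference between genotypes or stages could be set against replicate error. Libraries at 8 somites were made from single embryos of heterozygous parents that were genotyped after tagging, and those at 36 hpf from small pools of embryos. Stage and kind of library therefore cannot be told apart in any comparison between stages. No agent was applied, the strain background was AB/Tübingen, and cells of whole deyolked embryos went in without sorting, so that fewer cells with an open region and less opening per cell cannot be told apart. The lists held 96625 peaks in WT at 8 somites, 79893 in tp63-/- at 8 somites, 84703 in WT at 36 hpf and 76556 in tp63-/- at 36 hpf. Intervals below are 95% intervals for counting error only, within or between lists, and neighbouring peaks are not independent.

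Listed peaks were sparse along the long arm in all 4 lists. Density is given per Mb of assembly and was not corrected for gaps or for repeats to which reads do not map uniquely. How reads that map to several places were handled is not known here, and its part in the densities was not tested. The arm held 734 peaks in WT at 8 somites, 606 in tp63-/- at 8 somites, 562 in WT at 36 hpf and 496 in tp63-/- at 36 hpf, which was 0.760%, 0.759%, 0.663% and 0.648% of each list. Over 46.6 Mb, counted to the end of the last listed peak, this came to 15.7, 13.0, 12.1 and 10.6 peaks per Mb. The 30 Mb before the boundary held 67.8, 54.4, 63.2 and 59.0 peaks per Mb in the same order. Density on the long arm was therefore 4.31-fold lower in WT at 8 somites (95% interval 3.96 to 4.69), 4.18-fold lower in tp63-/- at 8 somites (3.81 to 4.60), 5.25-fold lower in WT at 36 hpf (4.77 to 5.77) and 5.55-fold lower in tp63-/- at 36 hpf (5.02 to 6.14). No other chromosome was as sparse. The lowest of the 24 others had 64.4 peaks per Mb in WT at 8 somites (chromosome 22), and 51.5, 57.3 and 51.7 per Mb in the remaining lists (chromosome 12 in each).

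The fall in density was abrupt at the boundary. The last 2 Mb before it held 93, 84, 97 and 83 peaks in WT and tp63-/- at 8 somites and WT and tp63-/- at 36 hpf, and the first 2 Mb beyond it held 25, 18, 22 and 12. The nearest region before the boundary, chr4:29851568-29851845, was listed at 8 somites in both genotypes at the 40.9 percentile of rank in WT and the 35.8 percentile in tp63-/- (the strongest peak of a list lies near 0). The nearest beyond it, chr4:30012465-30012860, was listed in WT at 8 somites and in both genotypes at 36 hpf, at the 59.7, 91.9 and 46.9 percentiles.

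**Figure D1:**
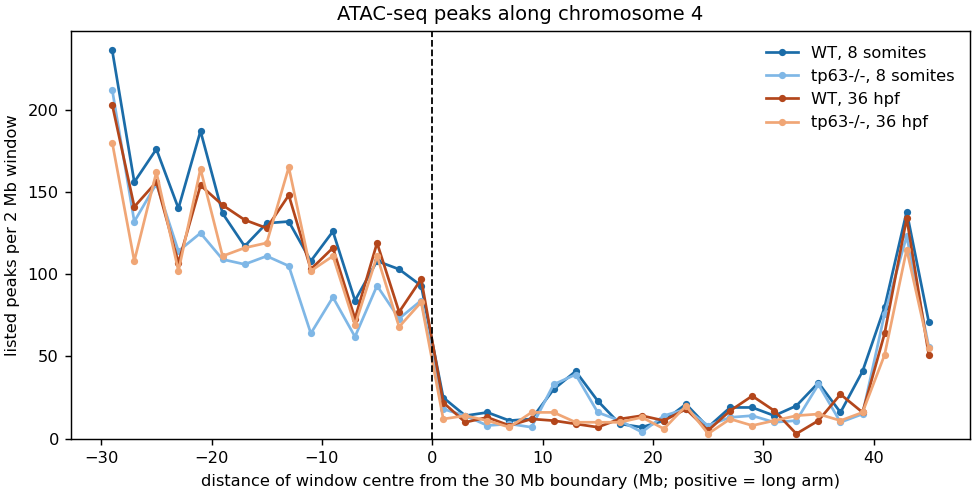
Listed peaks per 2 Mb window of chromosome 4 against the distance of the window centre from the 30 Mb boundary in Mb, with 1 line for each of the 4 lists and the last, incomplete window left out. Counts dropped from 83 to 97 in the window before the boundary to 12 to 25 in the window after it, and rose again to 115 to 138 at 72 to 74 Mb.

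Listed peaks were denser again at the far end of the arm. The 6.62 Mb beyond 70 Mb made up 14.2% of the arm's length and held 344, 301, 293 and 261 of its peaks in the 4 lists, or 46.9%, 49.7%, 52.1% and 52.6%. This terminal stretch had 51.9, 45.4, 44.2 and 39.4 peaks per Mb, and the interior from 30 to 70 Mb had 9.75, 7.63, 6.73 and 5.88. The terminal density was 5.33-fold the interior one in WT at 8 somites (4.59 to 6.17), 5.96-fold in tp63-/- at 8 somites (5.06 to 7.01), 6.58-fold in WT at 36 hpf (5.55 to 7.79) and 6.71-fold in tp63-/- at 36 hpf (5.60 to 8.03). It still lay below the density before 30 Mb, at a ratio of 0.766 (0.681 to 0.859), 0.836 (0.737 to 0.946), 0.699 (0.616 to 0.791) and 0.667 (0.584 to 0.760). The division at 70 Mb was chosen after these counts had been seen, and the terminal stretch, the interior and the whole arm are given separately from here on.

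Strength was compared by rank within a list, since the deposited values are comparable only there. Long-arm peaks had a median rank percentile of 56.5, 54.3, 50.8 and 53.2 in WT and tp63-/- at 8 somites and WT and tp63-/- at 36 hpf, beside 52.6, 54.0, 55.0 and 54.9 before 30 Mb. The strongest 10% of each list took in 42 of the long-arm peaks (5.72%), 38 (6.27%), 49 (8.72%) and 30 (6.05%), beside 6.98%, 6.32%, 6.33% and 6.78% before 30 Mb. The share on the long arm minus that before 30 Mb had an interval that included 0 in 3 lists, and in WT at 36 hpf it was 2.39 percentage points, with an interval that reached down to 0.0151. That difference came to 0.784 points, with an interval including 0, when only peaks with an irreproducible discovery rate (IDR) of at most 0.05 were kept. With peaks ranked by fold enrichment the long arm had the higher share in each list, by 2.65, 2.67, 6.41 and 6.08 points, so that the direction depended on the measure of strength. On the remaining chromosomes 10.1% of peaks were in the strongest 10% in each list, and the long arm differed from this by -4.36, -3.82 and -4.04 points in WT and tp63-/- at 8 somites and tp63-/- at 36 hpf, with intervals that did not reach 0. In WT at 36 hpf the difference was -1.37 points (-3.44 to 1.26).

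By rank on the p-value, most strong peaks of the arm were terminal. Of the peaks in the strongest 10%, 29 of 42, 28 of 38, 36 of 49 and 25 of 30 lay beyond 70 Mb. The interior had 13, 10, 13 and 5 such peaks, or 3.33%, 3.28%, 4.83% and 2.13% of its own peaks, against 8.43%, 9.30%, 12.3% and 9.58% of terminal peaks. The terminal share exceeded the interior share by 5.10 (1.71 to 8.78), 6.02 (2.18 to 10.1), 7.45 (2.83 to 12.1) and 7.45 (3.37 to 11.8) percentage points in the 4 lists. This split was not made with peaks ranked by fold enrichment. Median fold enrichment was 7.90, 7.66, 5.96 and 6.68 in the interior and 7.79, 7.55, 6.73 and 7.26 in the terminal stretch. It was thus higher in the interior at 8 somites and lower there at 36 hpf.

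The strongest long-arm regions ranked near the top of the whole genome, and each was listed in all 4 groups. The region chr4:73490469-73490871 held rank 16 in WT at 8 somites, 20 in tp63-/- at 8 somites, 66 in WT at 36 hpf and 63 in tp63-/- at 36 hpf, with fold enrichments of 20.1, 18.9, 15.3 and 13.8 over background. Rank 39, 10, 46 and 80 belonged to chr4:70691721-70692173, at fold enrichments of 19.6, 19.97, 15.5 and 14.2. The next region at 8 somites, chr4:70728750-70729061, ranked 152 in WT and 171 in tp63-/- and stood lower at 36 hpf, at 914 and 897. The opposite order was seen at chr4:73617842-73618365, next in order at 36 hpf, with rank 82 in WT and 246 in tp63-/- against 323 and 500 at 8 somites. Each of these regions lay in the terminal stretch, and no gene or sequence is given for them because genes and sequence of this assembly were not analysed here.

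Recurrence of strong peaks differed along the arm. Of terminal peaks in the strongest 10%, 27 of 29, 26 of 28, 34 of 36 and 24 of 25 belonged to regions listed in all 4 groups. In the interior the counts were 8 of 13 (61.5%, interval 35.5 to 82.3), 6 of 10 (60.0%, 31.3 to 83.2), 4 of 13 (30.8%, 12.7 to 57.6) and 3 of 5 (60.0%, 23.1 to 88.2). Before 30 Mb they were 139 of 142 (97.9%), 102 of 103 (99.0%), 120 of 120 and 120 of 120 (each 96.9 to 100%). The share over all peaks in the strongest 10% of each list was not counted. The comparison is therefore within chromosome 4 only, and it rests on few interior peaks.

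Peaks of the long arm were narrow for their rank, which follows the p-value of each peak. Median width was 267 bp in WT and 263 bp in tp63-/- at 8 somites, and 252 bp and 259 bp at 36 hpf, beside 321, 314, 303 and 330 bp before 30 Mb. Width rose with rank in every list, so each peak was also compared with the median width of its own rank decile over the whole list. On the long arm 62.4% of peaks in WT at 8 somites, 63.4% in tp63-/- at 8 somites, 67.6% in WT at 36 hpf and 68.5% in tp63-/- at 36 hpf were narrower than that median. The shares before 30 Mb were 50%, 49.3%, 53.2% and 52.9%, and the differences were 12.4 (8.23 to 16.5), 14.1 (9.47 to 18.5), 14.4 (9.86 to 18.8) and 15.7 (10.9 to 20.3) percentage points. The highest share on any of the 24 other chromosomes was 52.5%, 53.0%, 53.6% and 53.6%. The interior had the larger excess, with 66.2%, 64.9%, 74.7% and 74.0% of peaks narrower, against 58.1%, 61.8%, 61.1% and 63.6% in the terminal stretch. Terminal minus interior came to -8.01 (-15.0 to -0.991), -3.12 (-10.7 to 4.53), -13.6 (-21.1 to -5.91) and -10.4 (-18.4 to -2.26) percentage points, and the interval included 0 in tp63-/- at 8 somites.

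**Figure D2:**
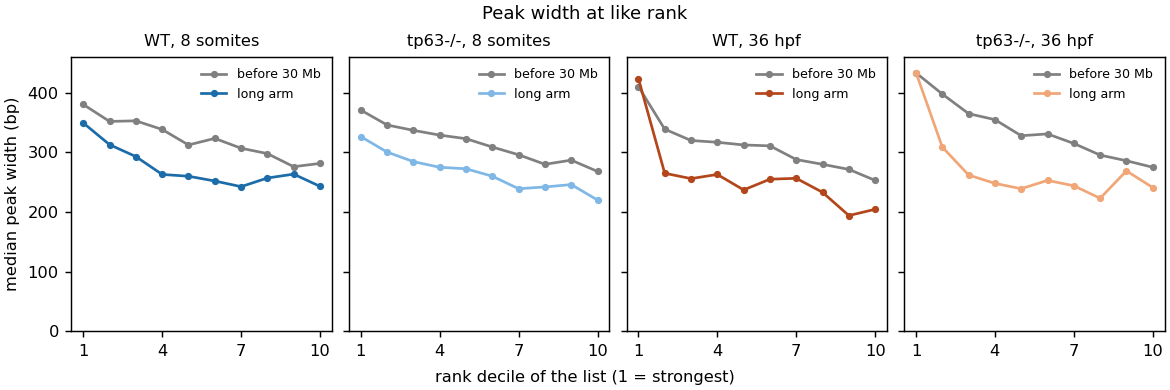
Median peak width in bp by rank decile of the list (1 holds the strongest peaks), with 1 panel for each list, coloured lines for the long arm and grey lines for chromosome 4 before 30 Mb. The long-arm median was the lower one in 38 of 40 pairs, the other two being the strongest decile at 36 hpf, where the medians were 424 against 410.5 bp in WT and 434 against 433.5 bp in tp63-/-.

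A few peaks of the arm were wide. The widest measured 1228 bp in WT at 8 somites (chr4:61417363-61418590), 1251 bp in tp63-/- at 8 somites (chr4:76322825-76324075), 1993 bp in WT at 36 hpf (chr4:50060127-50062119) and 1429 bp in tp63-/- at 36 hpf (chr4:62240535-62241963). None was strong, with ranks of 45919, 31443, 69033 and 58427. Peaks of at least 800 bp numbered 10 of 734, 18 of 606, 13 of 562 and 8 of 496 on the long arm. Their share before 30 Mb or over whole lists was not counted, so that neither an excess nor a lack is shown.

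Long-arm peaks were unevenly spread, with long stretches that held none. Of 466 windows of 100 kb, 42.1% had no peak in WT at 8 somites, 49.1% in tp63-/- at 8 somites, 51.9% in WT at 36 hpf and 55.6% in tp63-/- at 36 hpf, beside 2.0%, 5.0%, 1.67% and 2.0% of 300 windows before 30 Mb. The longest run of empty windows was 0.9, 1.2, 0.9 and 0.8 Mb. A share of 50% of the peaks was held by 11.6%, 10.5%, 9.23% and 9.01% of the windows, against 28.3%, 26.7%, 27.3% and 26% before 30 Mb. Variance over mean of the window counts was 3.50, 3.50, 3.48 and 3.41 on the whole arm but 1.73, 1.66, 1.54 and 1.54 in the interior and 2.61, 2.71, 2.59 and 2.66 in the terminal stretch, beside 2.51, 2.47, 2.61 and 2.68 before 30 Mb. This ratio grows with the mean count, which was 0.975, 0.763, 0.673 and 0.588 per window in the interior and 6.78, 5.44, 6.32 and 5.90 before 30 Mb, so that it does not compare the unevenness of these stretches. The share of empty windows and the share holding 50% of the peaks depend on the mean count as well. They do not separate grouping from low density. In the interior 50% of peaks were held by 14.3%, 12.8%, 12.5% and 11% of windows, and in the terminal stretch by 27.3%, 25.8%, 24.2% and 24.2%.

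The share of peaks in close pairs was higher in the terminal stretch than before 30 Mb, and not in the interior beyond counting error. Such pairs also arise more often where peaks are dense, and the shares were not corrected for density. Interior density was 9.75, 7.63, 6.73 and 5.88 peaks per Mb, against 67.8, 54.4, 63.2 and 59.0 before 30 Mb. Pairing at like density was not tested. A neighbouring summit within 1 kb was found for 20.03% of long-arm peaks in WT at 8 somites, 16.7% in tp63-/- at 8 somites, 22.8% in WT at 36 hpf and 21.4% in tp63-/- at 36 hpf, beside 14.7%, 15.1%, 17.6% and 18.1% before 30 Mb. The interval of the difference lay above 0 in WT at 8 somites, at 5.28 percentage points (2.10 to 8.66), and in WT at 36 hpf, at 5.22 (1.50 to 9.22), and not in tp63-/- at 8 somites, at 1.52 (-1.78 to 5.10), or at 36 hpf, at 3.25 (-0.614 to 7.44). With peaks kept at an IDR of at most 0.01 the WT differences were 3.41 and 4.50, both with intervals that included 0. The terminal share was 21.8%, 22.6%, 27.6% and 25.7%, above that before 30 Mb by 7.05 (2.71 to 11.9), 7.45 (2.72 to 12.8), 10.1 (4.97 to 15.7) and 7.55 (2.28 to 13.4) points. The interior share was 18.5%, 10.8%, 17.5% and 16.6%, with differences of 3.71 (-0.172 to 8.12), -4.32 (-7.84 to -0.00763), -0.0819 (-4.52 to 5.17) and -1.53 (-6.13 to 4.03). Median distance between neighbours was 20.7, 23.9, 20.8 and 27.6 kb, against 8.41, 10.01, 8.77 and 8.94 kb before 30 Mb.

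The densest 100 kb windows were terminal as well. After the 4 lists had been merged wherever peaks shared at least 1 bp, the window chr4:76500001-76600000 held 22 merged regions, 12 of them listed in all 4 groups. It was followed by chr4:73400001-73500000 with 17, of which 8 were in all 4 groups, and chr4:72700001-72800000 with 16, of which 4 were. The first of these windows held 19, 19, 14 and 15 regions in the 4 lists.

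Sharing between genotypes at 36 hpf was lower on the long arm than elsewhere. Of all peaks in WT at 36 hpf, 28.1% had no overlapping peak in tp63-/- at 36 hpf, and on the long arm 229 of 562 (40.7%) had none, against 27.5% before 30 Mb. At like rank, with peaks compared within 10 rank deciles of the list, the Mantel-Haenszel odds ratio of having no counterpart was 2.45 (1.93 to 3.10) against the rest of chromosome 4. In the opposite direction the whole list of tp63-/- at 36 hpf had 21.2% of peaks without a WT counterpart, and the long arm had 166 of 496 (33.5%) against 23.4% before 30 Mb, an odds ratio of 2.08 (1.60 to 2.71). Peaks missing from either genotype were thus more frequent on the arm, by odds ratios whose intervals overlapped.

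At 8 somites the odds ratios between genotypes were lower on the arm than at 36 hpf. In WT at 8 somites 33.2% of the whole list lacked a tp63-/- counterpart, and 273 of 734 long-arm peaks (37.2%) did, against 35.6% before 30 Mb, which gave an odds ratio of 0.970 (0.791 to 1.19). Of the tp63-/- list at 8 somites 18.9% lacked a WT counterpart, and of the long-arm peaks 146 of 606 (24.1%) did, against 19.6% before 30 Mb, with an odds ratio of 1.45 (1.13 to 1.87). With the boundary set at 25 Mb the latter was 1.24 and its interval included 1.

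Sharing between stages was low on the arm in 3 of 4 directions. In WT, 38.6% of all peaks at 8 somites had no counterpart at 36 hpf, and 413 of 734 long-arm peaks (56.3%) had none, against 39.1% before 30 Mb, with an odds ratio of 2.11 (1.74 to 2.55). The tp63-/- lists gave 35.4% over all peaks at 8 somites and 303 of 606 long-arm peaks (50%), against 35.1% before 30 Mb, with an odds ratio of 2.19 (1.76 to 2.72). From 36 hpf back to 8 somites the WT values were 29.8% of the whole list and 236 of 562 on the long arm (41.99%), against 34.4%, with an odds ratio of 1.62 (1.31 to 2.01). The corresponding tp63-/- peaks stood apart, with 33.2% of the whole list and 190 of 496 on the long arm (38.3%), against 40.8% before 30 Mb and an odds ratio of 0.901 (0.715 to 1.14). Against all other chromosomes that last odds ratio was 1.20 (0.979 to 1.48), so that its direction depended on the reference.

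The low sharing lay mainly in the interior. Against the rest of chromosome 4, interior odds ratios were 3.17 (2.34 to 4.29) for WT peaks without a tp63-/- counterpart at 36 hpf and 3.22 (2.30 to 4.51) for the reverse. They reached 3.98 (3.07 to 5.15) for WT peaks at 8 somites without a counterpart at 36 hpf and 3.75 (2.80 to 5.03) for the same direction in tp63-/-. The terminal odds ratios in these 4 directions were 1.79 (1.28 to 2.49), 1.14 (0.774 to 1.69), 1.01 (0.777 to 1.31) and 1.22 (0.914 to 1.64). The terminal value was below 1 for WT peaks at 8 somites without a tp63-/- counterpart, at 0.700 (0.518 to 0.946), and for tp63-/- peaks at 36 hpf without one at 8 somites, at 0.602 (0.433 to 0.838), where the interior had 1.21 (0.945 to 1.55) and 1.27 (0.943 to 1.72). In the last pair of directions, tp63-/- at 8 somites without WT and WT at 36 hpf without 8 somites, the interior had 1.68 (1.23 to 2.30) and 2.57 (1.94 to 3.40) and the terminal stretch 1.19 (0.832 to 1.70) and 0.952 (0.702 to 1.29). Against all other chromosomes, tp63-/- peaks at 36 hpf without an 8-somite counterpart had a terminal odds ratio of 0.805 (0.589 to 1.10). Their interior odds ratio was 1.69 (1.27 to 2.24). For WT peaks at 8 somites without a tp63-/- counterpart the values were 0.705 (0.532 to 0.934) and 1.20 (0.955 to 1.50).

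Set against all other chromosomes in place of the rest of chromosome 4, the whole arm lay outside the span of single chromosomes in 6 of the 8 directions. For WT peaks without a tp63-/- counterpart at 36 hpf the odds ratio was 2.01 (1.64 to 2.46), and each of the 24 other chromosomes, measured likewise, lay between 0.882 and 1.11. The reverse direction gave 2.15 (1.71 to 2.71) against 0.884 to 1.22. For 8 somites without 36 hpf the arm had 1.95 (1.65 to 2.30) in WT, where chromosome 15 was highest at 1.56, and 1.87 (1.56 to 2.24) in tp63-/-, where chromosome 6 was highest at 1.13. Peaks of tp63-/- at 8 somites without a WT counterpart exceeded the span narrowly, at 1.35 (1.09 to 1.67) against 1.28 on chromosome 3, a value inside that interval. Within the span of the others lay WT at 8 somites without tp63-/-, at 0.969 (0.813 to 1.16), and tp63-/- at 36 hpf without 8 somites. Whole chromosomes hold more peaks than the arm, so that their values scatter less than those of parts of its size.

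**Figure D3:**
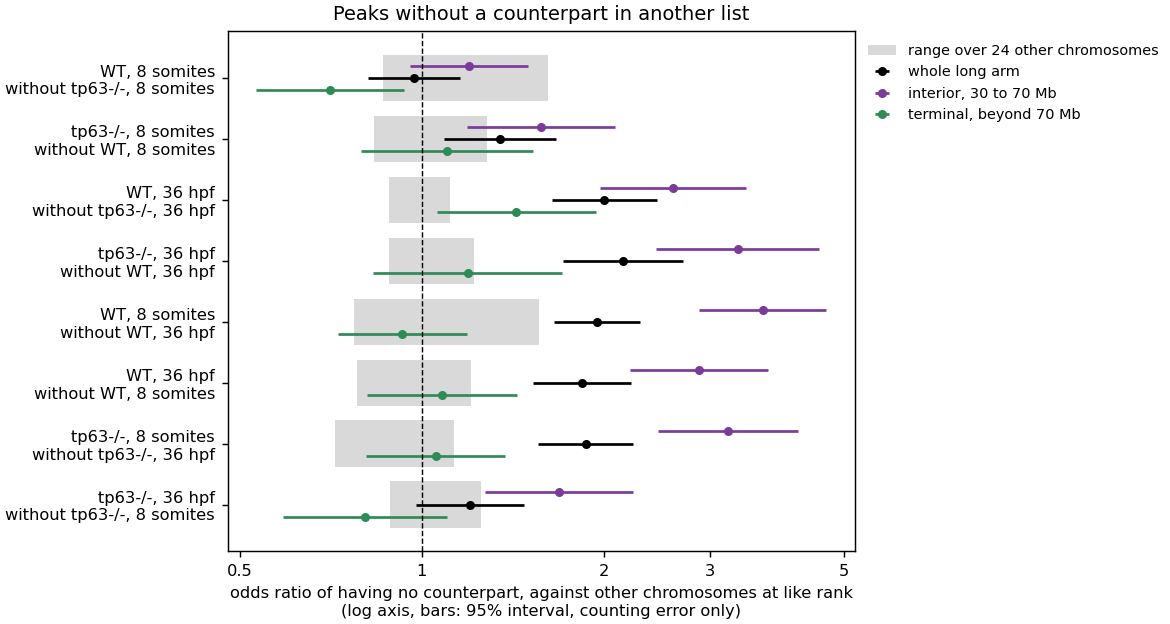
Mantel-Haenszel odds ratio, on a log axis, of a peak having no counterpart in another list, against all other chromosomes at like rank, for 8 pairs of lists, with points and 95% intervals (counting error only) for the long arm, its interior and its terminal stretch. Grey boxes span the 24 other chromosomes, and the interior lies to the right of the box in every pair but the first, where its value of 1.20 lies inside.

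Strong peaks were also compared, a choice made after the data had been seen. Of the strongest 30% of each whole list, 1.81% in WT and 0.601% in tp63-/- at 36 hpf had no counterpart in the other genotype, and 2.31% and 0.939% at 8 somites, while 8.04% of those in WT at 8 somites had none in WT at 36 hpf. Among peaks in the strongest 30% of WT at 36 hpf, 24 of 166 on the long arm (14.5%, interval 9.91 to 20.6) had no tp63-/- counterpart, against 5 of 478 before 30 Mb (1.05%, 0.448 to 2.43). Of those in tp63-/- at 36 hpf, 13 of 130 (10%, 5.94 to 16.4) had no WT counterpart, against 0 of 438 before 30 Mb (interval up to 0.869%). At 8 somites, where the odds ratio over all WT peaks had been near 1, the counts were 14 of 163 in WT (8.59%, 5.19 to 13.9) against 14 of 535 (2.62%, 1.57 to 4.34), and 2 of 140 in tp63-/- (1.43%, 0.393 to 5.06) against 2 of 406. Of the WT peaks at 8 somites, 50 of 163 (30.7%, 24.1 to 38.1) had no counterpart at 36 hpf, against 48 of 535 (8.97%, 6.83 to 11.7). In WT from 36 hpf back to 8 somites the count was 37 of 166 (22.3%, 16.6 to 29.2) against 25 of 478 (5.23%, 3.57 to 7.61), with 4.81% over the whole list. In tp63-/- it was 23 of 140 at 8 somites (16.4%, 11.2 to 23.4) against 21 of 406 (5.17%, 3.41 to 7.77), with 7.04% over the whole list, and 11 of 130 at 36 hpf (8.46%, 4.79 to 14.5) against 32 of 438 (7.31%, 5.22 to 10.1), with 5.06% over the whole list. Among WT peaks the interior held most of these, with 17 of the 24 at 36 hpf and 13 of the 14 at 8 somites, and 36 of the 50 from 8 somites to 36 hpf.

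A wider limit of 1 kb was used to name single regions. Over the whole lists 28.9% of WT and 15.8% of tp63-/- peaks at 8 somites had no peak of the other genotype within it, and 24.6% and 17.5% at 36 hpf. Within 1 kb, 237 of 734 long-arm peaks in WT at 8 somites had no tp63-/- peak (32.3%) and 122 of 606 in tp63-/- had no WT peak (20.1%), and at 36 hpf the counts were 199 of 562 (35.4%) and 154 of 496 (31.0%). Before 30 Mb the shares were 31.7% and 16.4% at 8 somites and 23.8% and 19.1% at 36 hpf. The strongest WT peak of this kind at 8 somites, chr4:68410290-68410629, had rank 4139 and a fold enrichment of 18.7 and was in no other list. So was chr4:67996808-67997528, at rank 11664, while chr4:68857634-68857904 (rank 13924) had a weak peak in WT at 36 hpf, at rank 70770. All 3 lay within 1 Mb of each other.

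Peaks of tp63-/- at 8 somites without a WT peak were weaker, and the strongest were present later in one or both genotypes. At rank 17104, chr4:68290758-68290967 was also listed in WT at 36 hpf at rank 13541 and in tp63-/- at rank 6060. The region chr4:42410522-42410793 had rank 24118 in tp63-/- at 8 somites and no WT peak at that stage, and at 36 hpf it had rank 317 in WT and 670 in tp63-/-, with fold enrichments of 13.4 and 15.6. It held the 1 interior peak within the strongest 1% of either list at 36 hpf. Between them came chr4:42880547-42880965, at rank 18664, which was listed at 36 hpf in tp63-/- alone, at rank 44097.

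At 36 hpf the strongest WT peaks without a tp63-/- peak were in no other list. They were chr4:52739207-52739466 at rank 4221 and a fold enrichment of 10.2, chr4:69855946-69856344 at rank 5991 and 13.8, and chr4:75746860-75747243 at rank 8303 and 10.6. The 3 strongest of the reverse set differed from these, since all were listed at 8 somites in both genotypes and were missing from WT at 36 hpf alone. They do not stand for the whole set. Of the merged long-arm regions, 75 (6.53%, beside 5.57% of all) were in tp63-/- at 36 hpf only. Those in every list but WT at 36 hpf numbered 51 (4.44%, beside 3.12% of all). The first, chr4:76363004-76363285, had rank 1517 in WT and 2557 in tp63-/- at 8 somites and rank 3531 in tp63-/- at 36 hpf. The second, chr4:45204330-45204539, had ranks of 2197, 3290 and 10153, and the third, chr4:62409598-62409817, had 27375, 31205 and 12890.

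Merging the 4 lists gave 1149 regions on the long arm and 3059 before 30 Mb. Over the whole genome 30.5% of merged regions were listed in all 4 groups, and on the long arm 217 (18.9%) were, against 27.7% before 30 Mb, a difference of -8.77 percentage points (-11.5 to -5.94). Regions listed in 1 group only were 34.3% of all and 512 (44.6%) on the long arm, against 34.4% before 30 Mb, a difference of 10.1 points (6.82 to 13.5). In the interior 60 of 671 regions (8.94%) were in all 4 lists, and in the terminal stretch 157 of 478 (32.8%) were, 5.19 points (0.822 to 9.79) more than before 30 Mb.

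As over the whole genome, regions were shared within a stage, and so within a kind of library, far more often than within a genotype. Regions listed in both genotypes at 8 somites and at 36 hpf in neither were 8.26% of all and 149 (13.0%) on the long arm, against 8.24% before 30 Mb, 4.73 points more (2.64 to 6.99). Those listed in both genotypes at 36 hpf only were 5.81% of all and 48 (4.18%) on the long arm, against 7.65%, a difference of -3.47 points (-4.89 to -1.88). Both WT lists and neither mutant list held 24 regions of the arm (2.09%, beside 2.8% of all regions), and both mutant lists and neither WT list held 12 (1.04%, beside 0.881% of all). The 2 mixed pairs joined one genotype at one stage to the other at the other. WT at 8 somites with tp63-/- at 36 hpf held 26 (2.26%, beside 1.94% of all). Tp63-/- at 8 somites with WT at 36 hpf held 13 (1.13%, beside 1.30% of all). The product of the same-genotype counts over that of the mixed counts was 0.852 (0.326 to 2.23), and the product of the same-stage counts over the latter was 21.2 (10.1 to 44.4), beside 0.903 and 23.2 before 30 Mb. Over all merged regions these 2 values were 0.980 and 19.0.

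**Figure D4:**
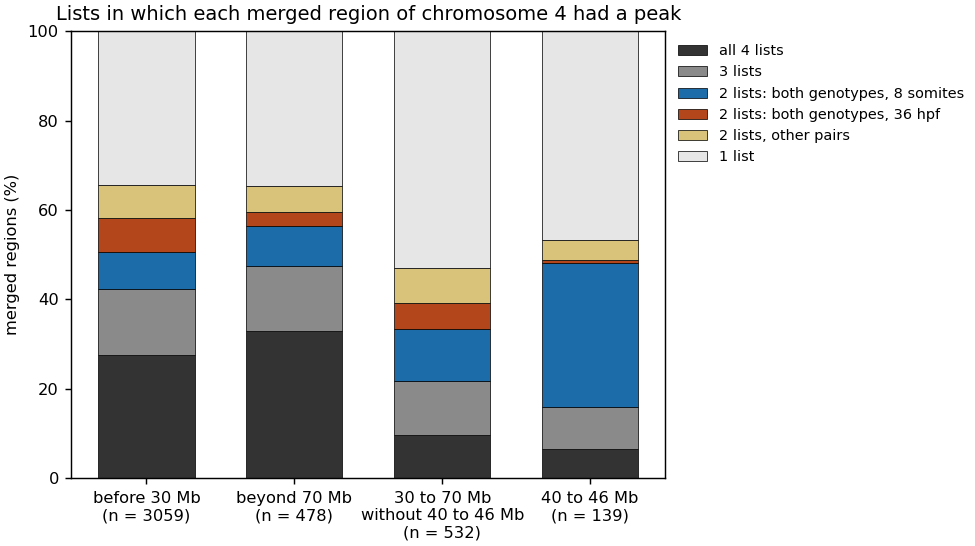
Share in percent of the merged regions of chromosome 4 by the lists in which they had a peak, for the stretch before 30 Mb (n = 3059), beyond 70 Mb (n = 478), 30 to 70 Mb without 40 to 46 Mb (n = 532), and 40 to 46 Mb (n = 139). Regions in all 4 lists made up 27.7%, 32.8%, 9.59% and 6.47%, and those at 8 somites only in both genotypes 8.24%, 9.00%, 11.5% and 32.4%. The limits of 40 and 46 Mb were drawn after the stage counts had been seen.

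The regions that followed the stage were strong in places. Of those listed at 8 somites in both genotypes and at 36 hpf in neither, the 3 of highest mean rank were chr4:43506060-43506375 (rank 4363 in WT and 7220 in tp63-/-), chr4:41978297-41978973 (5952 and 8185) and chr4:43984448-43985412 (11377 and 15370). All lay between 40 and 46 Mb. At 36 hpf only, the highest were chr4:49911211-49911752 (7984 in WT and 12405 in tp63-/-), chr4:52737524-52737959 (8325 and 13629) and chr4:56094945-56095389 (7383 and 19905). The 3 highest regions listed in both lists of 1 genotype only had lower mean ranks, though some were strong in a single list. These sets were smaller, with 24 and 12 regions against 149 and 48, and a larger set tends to hold stronger extremes. Ranks at like set size were not compared. The shares of these sets, 2.09% and 1.04%, lay near the 2.80% and 0.881% of all merged regions. In both WT lists only, the highest were chr4:61394423-61394625 (rank 36086 at 8 somites and 39723 at 36 hpf), chr4:76017908-76018168 (41979 and 39892) and chr4:33242594-33242956 (53403 and 35968). In both mutant lists only, they were chr4:76377977-76378226 (47607 and 15031), chr4:42880547-42880973 (18664 and 44097) and chr4:39829582-39829847 (53985 and 19348).

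The stretch from 40 to 46 Mb held many more peaks at 8 somites than at 36 hpf in both genotypes. It held 94 peaks in WT and 88 in tp63-/- at 8 somites, and 27 and 36 at 36 hpf. The number at 8 somites over that at 36 hpf was 3.48 in WT (2.25 to 5.56) and 2.44 in tp63-/- (1.64 to 3.71), while the whole lists stood at 1.14 and 1.04. The remaining interior had 296 and 217 peaks at 8 somites and 242 and 199 at 36 hpf, at ratios of 1.22 (1.03 to 1.46) and 1.09 (0.895 to 1.33). The terminal stretch had ratios of 1.17 and 1.15. The limits of 40 and 46 Mb were drawn after these counts had been seen, and the ratios describe the chosen stretch.

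Its merged regions were mostly of 8 somites, which the choice of the stretch by its stage counts favoured. Their shares describe the stretch and are no further support for it. Of 139, 45 (32.4%, interval 25.2 to 40.5) were listed in both genotypes at 8 somites only, 26 in WT at 8 somites only (18.7%, beside 13.5% of all merged regions) and 20 in tp63-/- at 8 somites only (14.4%, beside 6.5% of all). Both genotypes at 36 hpf only held 1 (0.719%, beside 5.81% of all), and all 4 lists held 9 (6.47%, beside 30.5% of all). Without this stretch the long-arm odds ratio of WT peaks at 8 somites having no counterpart at 36 hpf was 1.74 (1.43 to 2.12) and that of tp63-/- peaks 1.83 (1.45 to 2.30), so that the low sharing between stages held outside it too.

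Windows of 2 Mb over the genome placed this stretch beside all others. The log2 number at 8 somites over 36 hpf was taken after 1 had been added to each count, and was scaled by list length. There were 679 windows with at least 40 peaks over the 4 lists. The middle 95% of them lay between -0.38 and 0.48 in WT and between -0.53 and 0.55 in tp63-/-. The window at 42 to 44 Mb, with 41 and 39 peaks at 8 somites and 9 and 10 at 36 hpf, had log2 values of 1.88 in WT and 1.80 in tp63-/-, the latter the highest of all windows. The highest in WT was 62 to 64 Mb at 2.20, where WT had 20 peaks at 8 somites and 3 at 36 hpf while tp63-/- had 11 and 14. Values of at least 1 were reached in WT by 6 of 21 long-arm windows and by none on other chromosomes, and in tp63-/- by 3 on the long arm and 1 elsewhere. The lowest values of all windows were on the long arm too, at -0.910 in WT (66 to 68 Mb) and -1.15 in tp63-/- (38 to 40 Mb). Long-arm windows under 40 peaks were left out. Among them was 48 to 50 Mb, with 7 peaks in WT and 4 in tp63-/- at 8 somites against 14 and 13 at 36 hpf. Long-arm windows hold few peaks, and their values therefore scatter more widely than those of full windows, in both directions.

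**Figure D5:**
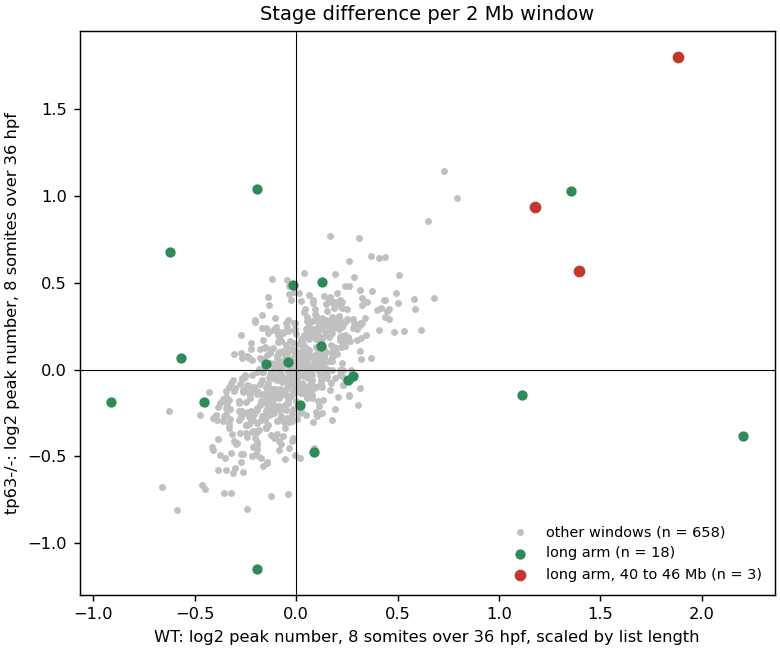
Log2 of the number of peaks at 8 somites over 36 hpf in 2 Mb windows, in WT (horizontal axis) and tp63-/- (vertical axis). Each point is a window, with 1 added to each count and scaling by list length. The 3 windows of 40 to 46 Mb lie in the upper right, led by 42 to 44 Mb at 1.88 and 1.80, and the other 18 long-arm windows spread on all sides of the 658 windows elsewhere.

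A second stretch of the same kind, also picked after the counts had been seen, was smaller. From 64 to 66 Mb there were 34 peaks in WT and 33 in tp63-/- at 8 somites against 11 and 15 at 36 hpf. Of its 51 merged regions, 13 (25.5%) were listed in both genotypes at 8 somites only, as were 8.26% of merged regions genome-wide. From 68 to 70 Mb the excess was in a single list, with 41 peaks in WT at 8 somites and 15, 16 and 16 in the other three, and 21 of its 54 merged regions were in that list alone, as were 13.5% of merged regions genome-wide and 16.1% on the long arm. The strongest WT peaks without a tp63-/- peak at 8 somites, named above, lay in or beside this window. The stretch from 48 to 50 Mb, also picked after the counts had been seen, went the other way. Of its 25 merged regions, 7 were listed in both genotypes at 36 hpf only and 0 in both genotypes at 8 somites only. Genome-wide these patterns made up 5.81% and 8.26% of merged regions. The counts are small and describe the chosen stretch.

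Where a region was listed in all 4 groups, its rank moved further on the long arm than before 30 Mb between genotypes at 36 hpf and between stages in WT, and by about as much in the other pairs. Over the 217 such regions the median absolute difference in rank percentile between genotypes was 8.25 at 8 somites and 9.33 at 36 hpf, beside 8.46 and 6.57 for the 846 regions before 30 Mb. Between stages it was 15.5 in WT and 12.03 in tp63-/-, beside 10.7 and 12.6. A move of over 20 percentile points was seen between genotypes at 36 hpf in 52 of the 217 (23.96%, beside 12.6% before 30 Mb) and between stages in WT in 85 (39.2%, beside 29.6%).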

How the data were processed

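The study made ATAC-seq libraries from whole deyolked zebrafish embryos, 2 for each of 4 groups (8 libraries). Per the submitters' processing notes, Bowtie2 and SAMtools were used with the GRCz10 (danRer10) assembly. Per the study's methods, read pairs over 2 kb apart were removed, cut sites were offset for Tn5 and extended by 5 bp, and peaks of both replicates were combined with IDR. The deposited lists reach a global IDR of 0.1. The peak caller, the handling of reads that map to several places and the sequencer of each library are not given in the sources used here, and the lists hold no read depth. The deposited columns used were fold enrichment (a ratio over background), -log10 of the p-value, and -log10 of the IDR. The deposited IDR score was read only to check the file.

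Peaks were ranked within a list by -log10 p and then by fold enrichment. Peaks tied on both kept genomic order (86.1% to 91.7% of long-arm peaks had a tie, and the largest tied group was 1.44% of a list). Shares have Wilson intervals, differences of shares Newcombe intervals, density ratios exact conditional intervals, and odds ratios the Mantel-Haenszel form over 10 deciles (scipy 1.17.1, statsmodels 0.14.6). Overlap needed 1 bp. Starts are 1-based. Named regions were the 3 strongest per list, the 3 strongest at least 1 kb from any peak of the same stage in the other genotype, the 3 densest 100 kb windows and the 3 of highest mean rank per pair of lists. Alternatives were IDR limits, equal list sizes, rank by fold, other overlaps, boundaries, window sizes and references. Members and lists were chosen with earlier results of these data known. The minimum of 40 peaks per 2 Mb window and the comparison with single chromosomes were also chosen after seeing the data. Scripts were tested on simulated data, and overlaps were checked with bedtools 2.31.1. Genes and sequence were not analysed here.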

Additional observations from a re-analysis of the deposited data

Results flagged for a closer look

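In 2 results the same contrast gave different values in a pair of stages or genotypes. The odds ratio, against the rest of chromosome 4, of WT peaks having no tp63-/- counterpart was 2.45 at 36 hpf and 0.970 at 8 somites, a ratio of 2.52 (95% interval 1.85 to 3.45, counting error only). The odds ratio of peaks at 36 hpf having no counterpart at 8 somites was 0.901 in tp63-/- and 1.62 in WT, a ratio of 0.556 (0.406 to 0.763). Both intervals exclude 1, but each odds ratio rests on single lists, and variation between replicates is not part of them. With peaks ranked by fold enrichment the odds ratios of the first contrast were 2.74 (2.18 to 3.46) at 36 hpf and 1.23 (1.01 to 1.50) at 8 somites. The value of 0.970 covers unlike parts, with 1.21 (0.945 to 1.55) in the interior and 0.700 (0.518 to 0.946) in the terminal stretch. Among the strongest 30% of WT peaks at 8 somites, 8.59% on the arm had no tp63-/- counterpart, against 2.62% before 30 Mb. At 36 hpf these shares were 14.5% and 1.05%. The second contrast depends on its reference. Against all other chromosomes its odds ratios were 1.20 in tp63-/- and 1.84 in WT. Before 30 Mb 40.8% of tp63-/- and 34.4% of WT peaks at 36 hpf had no counterpart at 8 somites, against 33.0% and 29.5% on other chromosomes. The corresponding ratios for tp63-/- peaks without a WT counterpart, at 1.43 (0.994 to 2.07), and for 8 somites without 36 hpf, at 1.04 (0.780 to 1.39), had intervals that included 1. So did the ratio of the stage ratios of WT and tp63-/- at 40 to 46 Mb, at 1.42 (0.799 to 2.54).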

How the results depend on the processing

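No paired analysis was possible because each group has 1 list made from both replicates, which also kept any replicate from being left out. Of 214 values under other settings, 173 held. A value held if it kept its direction and side of the threshold. Shares of empty windows have no threshold and held if they lay within the reported interval, as 2 of 16 did. All 28 density ratios did (0.178 to 0.286), as did all 20 shares of narrow peaks (60.7% to 72.7%), all 8 differences in merged regions and all 6 stage ratios at 40 to 46 Mb (2.25 to 4.6). The stage ratios come from the counts by which that stretch was chosen and are no independent support. Of 80 odds ratios, 73 did. WT at 8 somites without tp63-/- was 1.23 with rank by fold (interval 1.01 to 1.50, which excludes 1), 1.01 with an overlap of 50% and 1.04 without 40 to 46 Mb. Tp63-/- at 8 somites without WT was 1.24 with the boundary at 25 Mb, and tp63-/- at 36 hpf without 8 somites was 1.22 with rank by fold, 1.03 with an overlap of 50% and 1.20 against other chromosomes. Among the results with a threshold, the difference in top-decile share was the least stable, with 13 of 28 held. With rank by fold it was 2.65 in WT and 2.67 in tp63-/- at 8 somites and 6.08 in tp63-/- at 36 hpf. Against other chromosomes it was -4.36, -3.82, -1.37 and -4.04 in the 4 lists. For tp63-/- at 8 somites it was 0.992 at an IDR of 0.01, 0.519 and 0.814 with boundaries at 35 and 25 Mb, and 0.635 without 40 to 46 Mb, for tp63-/- at 36 hpf 1.74 at an IDR of 0.01 and 0.376 with the boundary at 25 Mb, and for WT at 36 hpf 0.784 and 0.831 at IDRs of 0.05 and 0.01. The difference in close neighbours was 3.41 in WT at 8 somites at an IDR of 0.01, 2.81 and 4.50 in WT at 36 hpf at 0.05 and 0.01, and in tp63-/- at 36 hpf 4.50 with the boundary at 35 Mb and 3.78 against other chromosomes. Empty windows were more frequent in stricter lists, at 48.7%, 54.9%, 57.3% and 60.5% at an IDR of 0.05 and 59.2%, 65.7%, 66.7% and 69.7% at 0.01, and 51.3% and 56.9% in WT at equal list size. They were 60.7%, 65.1%, 69.5% and 71.2% of 50 kb windows. The cause was not tested. Width against other chromosomes gave no separate value, since its reference is the whole list. Width was not compared with peaks ranked by fold. Omitting 40 to 46 Mb and its stage ratios were added after seeing the data.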
